A study of Saccharomyces cerevisiae with 8 samples.

Results

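The 39 genes described here encode nuclear-encoded subunits of the mitochondrial respiratory chain and of ATP synthase in the budding yeast Saccharomyces cerevisiae. They comprise 3 NADH dehydrogenases, 4 genes of complex II, 9 of complex III, 2 of cytochrome c, 9 of complex IV and 12 of ATP synthase. They were picked by gene symbol, by a rule that uses no measured value though it was set with earlier results of these data known, and each was represented by its probe set with the highest mean over all arrays. They are 39 of the 5656 genes that had a probe set of their own. All 39 passed the filter on low signals, which 5343 of the 5656 genes passed.

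The 8 arrays fell into 4 groups of 2. These were stb3-null cells collected 10 min after 2% glucose was added to a culture that had grown for 3 days in YPD, stb3-null cells at 3 days without that addition, and the same pair of conditions in BY4742, the wild type of the study. YPD is a rich medium with glucose as its carbon source, and BY4742 is a haploid laboratory strain of mating type alpha. The stb3-null cells lack STB3, which encodes a protein known to bind a promoter element of ribosome biogenesis genes. The labels name no further allele and do not say whether replicates A and B were grown as separate cultures, so the spread behind each p-value is that between these arrays and may be technical.

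In mitochondria, electrons from NADH and succinate pass through ubiquinone, complex III and cytochrome c to complex IV, which reduces oxygen, and the proton gradient built on the way drives ATP synthase. Saccharomyces cerevisiae has no proton-pumping complex I and uses single-protein NADH dehydrogenases in its place. Respiratory genes of this yeast are known as targets of glucose repression and of activation by the Hap2/3/4/5 complex, and cells that have used up their glucose live on respiration. The comparison of the groups bears on how transcripts of this machinery stood 10 min after glucose returned, and on whether the loss of Stb3 altered that.

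STB3 itself had log2 signals of 2.50 and 2.82 in stb3-null cells after glucose and of 3.30 and 2.90 in stb3-null cells at 3 days, against 8.42 and 7.62 in BY4742 after glucose and 9.23 and 8.48 in BY4742 at 3 days. HXT1, a low-affinity hexose transporter that glucose induces, stood at 10.44 to 12.38 on the 4 glucose arrays and at 5.86 to 6.81 on the 4 arrays at 3 days. Of the alpha-cell genes, MF(ALPHA)1, STE3 and SAG1 lay between 8.12 and 13.2 on all 8 arrays and MF(ALPHA)2 between 6.88 and 8.45. Of the genes taken as markers of a cells, AGA2, BAR1 and STE2 reached at most 6.01, while MFA1 and MFA2 lay between 6.55 and 7.81 and AGA1 between 7.95 and 9.77. Not every gene of that list was thus low, and the mating type was not tested by these values. Array B of BY4742 after glucose stood apart from its partner for the genes described here. On it, 38 of the 39 genes read lower than on array A, by a median of 0.69 on the log2 scale, while the median difference over all genes tested was 0.01. In BY4742 at 3 days, 28 of the 39 genes read higher on array B, by a median of 0.22. In stb3-null cells the median of B minus A was 0.00 after glucose and -0.35 at 3 days. In that last group, too, 38 of the 39 genes read lower on array B, where the median over all genes tested was -0.12. Results for BY4742 are therefore given with and without array B where it matters. Fewer cells of a kind and less RNA per cell cannot be told apart in these bulk samples.

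After glucose, transcripts of most of the 39 genes read modestly higher in the values as deposited, and a few read lower. Averaged over both strains, 34 of the 39 had a positive log2 change and 5 a negative one, and the median change was 0.56, against 0.24 over all genes tested. By limma, 16 rose and 2 fell at a Benjamini-Hochberg adjusted p below 0.05 over all 5343 genes, whereas of all genes 39.8% rose and 21.1% fell. The 16 were NDE1, QCR7, QCR9, COX8, COX9, COX12, ATP1, ATP2, ATP5, ATP7, ATP14, ATP15, ATP16, ATP17, ATP18 and ATP20, and the 2 were NDE2 and NDI1. A share of 16 in 39 is near the share of all genes that rose. Which genes were called also depended on single arrays. With 1 array left out at a time, the median change relative to all genes, 0.32 with all arrays, ran from 0.12 to 0.50. It was lowest without array A of BY4742 after glucose and highest without array B of that group.

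Within stb3-null cells, 12 of the 39 genes rose and none fell, where 28.0% of all genes rose and 11.6% fell. The median change there was 0.73, against 0.26 over all genes. Within BY4742, 3 genes rose (NDE1, QCR7 and ATP2) and NDE2 fell, where 32.3% of all genes rose and 17.6% fell, and the median was 0.39, against 0.22 over all genes. Without array B of BY4742 after glucose, the median change in BY4742 was 0.75, against 0.23 over all genes, with 34 changes positive and 5 negative. Without array A in its place, the median was 0.04, against 0.23 over all genes, with 21 positive and 18 negative. NDE1 and QCR7 passed the test in both strains, or 2 of the 39 genes, where 1831 of all 5343 genes did. In BY4742, however, QCR7 kept its call under only 5 of the 17 other settings, and NDE1 under 13. The 12 calls in stb3-null cells became 2 without array A at 3 days and none without any other of the 4 stb3-null arrays, and 20 without either BY4742 array after glucose. The 4 calls in BY4742 became 2 without any of the stb3-null arrays, which share in the estimate of the spread, and 1 without array B of BY4742 at 3 days.

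The direction of these changes depended on how the arrays were scaled against each other. The values as deposited had similar medians on all arrays but 2% trimmed means, taken over the antilog signals, that differed 1.54-fold, with the higher ones on the glucose arrays. After quantile normalisation, which gives every array one distribution of signals, 8 of the 39 averaged changes were positive and 31 negative, none rose, and 7 fell (NDE2, NDI1, SDH1, COR1, QCR6, QCR10 and COX7). Of all 5343 genes, 1663 rose and 1457 fell under that scaling, a larger share in either direction than among the 39. The median change was then -0.21, against 0.03 over all genes. After scaling to a common trimmed mean, 2 rose (NDE1 and ATP17) and 4 fell (NDE2, NDI1, COR1 and CYT1), with a median of 0.07, against -0.25 over all genes, of which 1134 rose and 2157 fell. After centring each array on its median, 14 rose and 2 fell, where 1911 of all genes rose and 1300 fell. Relative to the median of all genes, the 39 genes lay higher by 0.32 on the log2 scale as deposited and lower by 0.25 after quantile normalisation. Centring and trimmed-mean scaling left the 0.32 as it was by construction, since each shifts all genes of an array by a constant. They are therefore no separate check of this value. Ranked among all genes on its array, a gene stood higher on average after glucose in 7 of the 39 cases and lower in 32. Many of these shifts were small, such as -0.05 percentile points for COX8 and ATP7, and they ran from -15.98 for NDE2 to 5.41 for COX5B. The median percentile of the 39 genes was 93.24 on array B of BY4742 after glucose and between 95.66 and 96.49 on every other array. The count of lower ranks thus rests in part on that array. The falls of NDE2 and NDI1 and the order of the complexes did not turn with the scaling: NDE2 and NDI1 fell under all 3 other scalings, and ATP synthase genes rose relative to complexes II, III and IV under quantile normalisation as in the deposited values, as described further on.

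**Figure D1:**
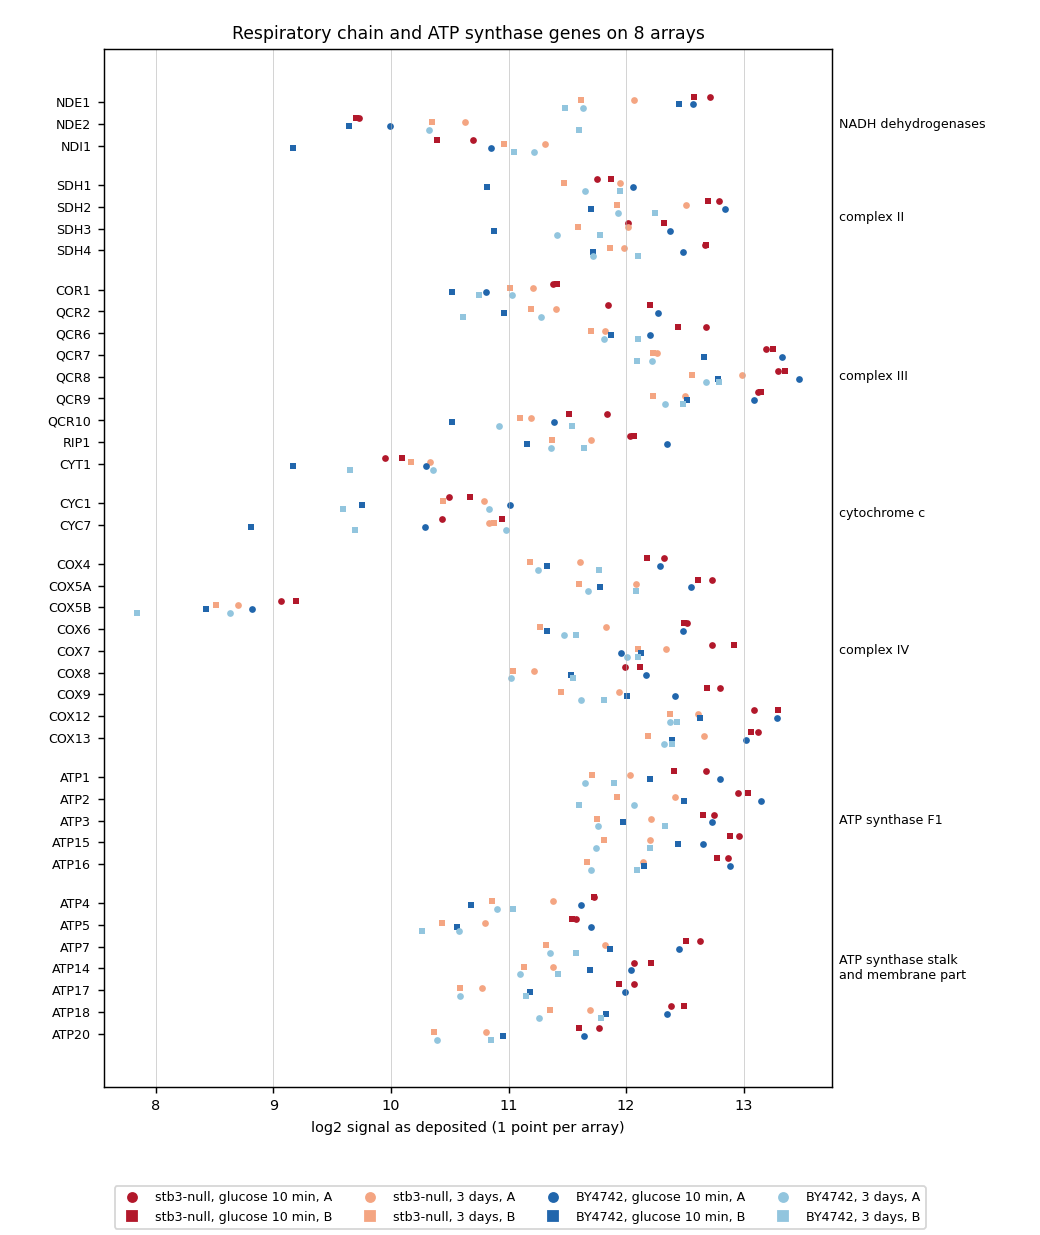
Log2 signal as deposited (horizontal axis) of each of the 39 genes (rows, grouped by complex), with 1 point per array, circles for replicate A and squares for replicate B. Points of both glucose groups lie mostly to the right of those at 3 days in these values, with negative averaged changes for NDE2, NDI1, SDH1, CYT1 and CYC7, while array B of BY4742 after glucose lies left of array A for 38 of 39 genes; under quantile normalisation 31 of the 39 averaged changes turn negative.

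The NADH dehydrogenases split. NDE1 (YMR145C) and NDE2 (YDL085W) encode the 2 external enzymes, which oxidise cytosolic NADH at the outer face of the inner membrane, and NDI1 (YML120C) encodes the internal enzyme, which takes NADH from the matrix. NDE1 read 12.71 and 12.58 in stb3-null cells after glucose and 12.07 and 11.62 at 3 days, and 12.57 and 12.45 in BY4742 after glucose and 11.63 and 11.48 at 3 days, with replicate A before B here and below. All 4 glucose arrays lay above all 4 arrays at 3 days. The averaged log2 change was 0.88 ± 0.19 (SE of the fit, 2 arrays a group), with a limma adjusted p of 0.0027, and it was 0.04 after quantile normalisation.

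NDE2 went the other way. Its signals were 9.73 and 9.70 in stb3-null cells after glucose and 10.63 and 10.35 at 3 days, and 9.99 and 9.64 in BY4742 after glucose and 10.32 and 11.60 at 3 days. Every glucose array lay below every array at 3 days, and NDE2 fell by 0.96 ± 0.27 on the log2 scale, with a limma adjusted p of 0.011. It was the only one of the 18 averaged calls among the 39 genes that kept its call under all 16 other settings tried. Within the strains the log2 change was -0.78 in stb3-null cells, with a limma adjusted p of 0.13, and -1.15 in BY4742, with one of 0.029. The BY4742 value rests in part on array B at 3 days, which read 1.28 above array A and without which NDE2 did not pass in BY4742.

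NDI1 read 10.70 and 10.39 in stb3-null cells after glucose and 11.31 and 10.96 at 3 days, and 10.85 and 9.17 in BY4742 after glucose and 11.22 and 11.05 at 3 days. The groups did not overlap, and the lowest value by far was that of array B of BY4742 after glucose. NDI1 fell by 0.86 ± 0.32 on the log2 scale when both strains were averaged, with a limma adjusted p of 0.042. Without that array the averaged change was -0.44, and without array A in its place it was -1.28. The call was near the threshold and was kept under 9 of the 16 other settings. Only 1 of those 9 left out an array, though 8 of the 16 did.

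The log2 ratio of NDE1 to NDE2 on each array, whose change does not move when an array is scaled by a constant, was 2.98 and 2.88 in stb3-null cells after glucose and 1.44 and 1.27 at 3 days, and 2.58 and 2.81 in BY4742 after glucose and 1.31 and -0.12 at 3 days. The ratio was higher on all 4 glucose arrays than on any array at 3 days. Its mean change was 1.84, or 3.57-fold, and it was 1.43 after quantile normalisation. An exact permutation test of arrays within strain, two-sided, gave p = 0.056, which is the smallest that its 36 arrangements allow, and 0.17 after adjustment over the 3 isoform pairs tested. Since probe sets differ in their response to a transcript, only the change of such a ratio is read here, not its level.

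**Figure D2:**
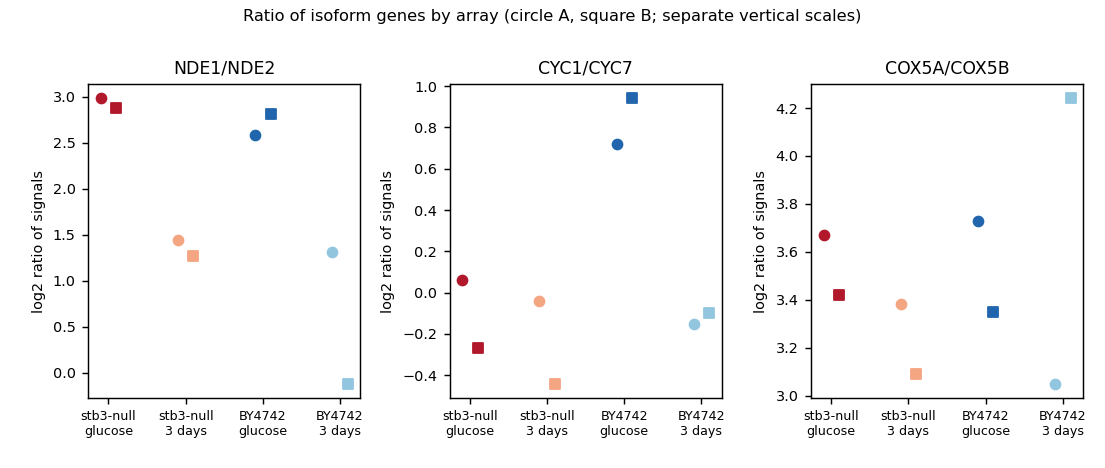
Log2 ratio of the signals of 3 pairs of isoform genes on each array (vertical axes, separate scales), with circles for replicate A and squares for replicate B, by strain and condition. The NDE1/NDE2 ratio lies between 2.58 and 2.98 on the 4 glucose arrays and between -0.12 and 1.44 on the 4 arrays at 3 days, whereas the other ratios overlap between conditions.

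Complex II oxidises succinate to fumarate and is shared with the tricarboxylic acid cycle. None of its 4 genes passed the test in either strain or in the average, where 39.8% of all genes rose and 21.1% fell. As deposited, 3 of 4 averaged changes were positive, with a median of 0.28, and after quantile normalisation all 4 were negative, with a median of -0.54. SDH1 (YKL148C), the flavoprotein subunit, had the lowest averaged change, -0.13 ± 0.28. Its signals were 11.75 and 11.87 in stb3-null cells after glucose and 11.95 and 11.47 at 3 days, and 12.06 and 10.82 in BY4742 after glucose and 11.65 and 11.95 at 3 days, so the conditions overlapped in both strains.

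SDH4 (YDR178W), a membrane anchor subunit, had the highest averaged change of the complex, 0.47 ± 0.22, with a limma adjusted p of 0.085. It read 12.67 and 12.68 in stb3-null cells after glucose and 11.98 and 11.86 at 3 days, where the conditions did not overlap. In BY4742 it read 12.48 and 11.72 after glucose and 11.72 and 12.10 at 3 days, where they did. SDH2, the iron-sulphur subunit, and SDH3, the other anchor subunit, had averaged changes of 0.36 and 0.20. Array B of BY4742 after glucose read lower than array A by 1.16 on average over these 4 genes. Without it the median of the 4 averaged changes was 0.61, against 0.23 over all genes.

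Complex III passes electrons from ubiquinol to cytochrome c. QCR7 and QCR9 rose in the average, and QCR6 and QCR7 rose within stb3-null cells, while no gene of the complex fell in the deposited values. Of all genes, 39.8% rose and 21.1% fell in the average, and 28.0% rose in stb3-null cells. The median of the 9 averaged changes was 0.44 as deposited and -0.39 after quantile normalisation. QCR7 (YDR529C), a small subunit on the matrix side, had the largest change of the complex, 0.91 ± 0.20 in the average, with a limma adjusted p of 0.0036. It read 13.19 and 13.25 in stb3-null cells after glucose and 12.26 and 12.23 at 3 days, and 13.33 and 12.66 in BY4742 after glucose and 12.22 and 12.09 at 3 days, with no overlap between conditions. It passed the averaged test under 14 of the 16 other settings.

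QCR9 (YGR183C), a small transmembrane subunit, read 13.12 and 13.15 in stb3-null cells after glucose and 12.50 and 12.23 at 3 days, and 13.09 and 12.52 in BY4742 after glucose and 12.33 and 12.48 at 3 days. The conditions were apart by only 0.02, and the averaged change was 0.59 ± 0.20, with a limma adjusted p of 0.029. Under quantile normalisation it was -0.21. Its call was kept under 9 of the 16 other settings.

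QCR6 (YFR033C), the acidic hinge protein next to cytochrome c1, read 12.68 and 12.44 in stb3-null cells after glucose and 11.82 and 11.70 at 3 days, and 12.20 and 11.87 in BY4742 after glucose and 11.81 and 12.10 at 3 days. The conditions were apart in stb3-null cells and overlapped in BY4742. Its change was 0.80 ± 0.26 in stb3-null cells, with a limma adjusted p of 0.037, and 0.08 ± 0.26 in BY4742, with one of 0.82. The difference of these responses was 0.72 ± 0.37, with a limma adjusted p of 0.75, so it was not shown that the strains differed.

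The catalytic and core subunits of complex III did not pass the test. CYT1 (YOR065W), cytochrome c1, had the lowest averaged change, -0.25 ± 0.26, with 9.95 and 10.09 in stb3-null cells after glucose and 10.33 and 10.17 at 3 days, and 10.30 and 9.17 in BY4742 after glucose and 10.36 and 9.65 at 3 days. The averaged change was 0.39 for RIP1, the Rieske iron-sulphur protein, 0.03 for COR1 and 0.70 for QCR2, the 2 core proteins, and 0.47 for QCR8 and 0.13 for QCR10, further small subunits. After quantile normalisation COR1, QCR6 and QCR10 fell, with changes of -0.61, -0.39 and -0.57.

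Cytochrome c carries electrons from complex III to complex IV. CYC1 (YJR048W) encodes the main form of aerobic cells and CYC7 (YEL039C) the form known for hypoxic and starved cells. CYC1 read 10.49 and 10.67 in stb3-null cells after glucose and 10.79 and 10.44 at 3 days, and 11.01 and 9.75 in BY4742 after glucose and 10.83 and 9.59 at 3 days. CYC7 read 10.43 and 10.94 in stb3-null cells after glucose and 10.83 and 10.88 at 3 days, and 10.29 and 8.81 in BY4742 after glucose and 10.98 and 9.69 at 3 days. In BY4742 both genes stood more than 1 log2 unit lower on array B than on array A in either condition, so replicates differed by more than conditions.

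Neither gene passed the test, with averaged changes of 0.07 ± 0.33 for CYC1 and -0.48 ± 0.36 for CYC7. Taken as a ratio on each array, log2 CYC1/CYC7 was 0.06 and -0.27 in stb3-null cells after glucose and -0.04 and -0.44 at 3 days, and 0.72 and 0.94 in BY4742 after glucose and -0.15 and -0.10 at 3 days. The gap between replicates largely dropped out of the ratio in BY4742 but not in stb3-null cells. The conditions overlapped in stb3-null cells and did not in BY4742, where the ratio was higher after glucose by 0.96. The mean change over both strains was 0.55, with p = 0.11 by the exact permutation test and 0.17 after adjustment over 3 pairs.

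Complex IV reduces oxygen. COX8, COX9 and COX12 rose in the average, and COX8 and COX9 rose within stb3-null cells, while none of the 9 genes passed in BY4742. Of all genes, 39.8%, 28.0% and 32.3% rose in these comparisons. The averaged changes of all 9 were positive as deposited, with a median of 0.58, and 1 of 9 was positive after quantile normalisation, where the median was -0.17. COX9 (YDL067C), subunit VIIa, had the largest change, 0.78 ± 0.20, with a limma adjusted p of 0.0075. It read 12.80 and 12.69 in stb3-null cells after glucose and 11.94 and 11.45 at 3 days, and 12.42 and 12.01 in BY4742 after glucose and 11.62 and 11.81 at 3 days. No glucose array reached down to any array at 3 days.

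COX8 (YLR395C), subunit VIII, read 11.99 and 12.12 in stb3-null cells after glucose and 11.22 and 11.04 at 3 days, and 12.17 and 11.53 in BY4742 after glucose and 11.02 and 11.55 at 3 days. Here the B arrays of BY4742 overlapped by 0.02 while the other arrays were apart, and the averaged change was 0.75 ± 0.22, with a limma adjusted p of 0.013. COX12 (YLR038C), subunit VIb, read 13.09 and 13.29 in stb3-null cells after glucose and 12.61 and 12.37 at 3 days, and 13.28 and 12.63 in BY4742 after glucose and 12.37 and 12.43 at 3 days. Its averaged change was 0.63 ± 0.21, with a limma adjusted p of 0.024, and its call was kept under 9 of the 16 other settings.

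COX7 (YMR256C), subunit VII, had the lowest change of the complex, 0.30 ± 0.18 in the average. It read 12.73 and 12.92 in stb3-null cells after glucose and 12.34 and 12.10 at 3 days, and 11.96 and 12.13 in BY4742 after glucose and 12.01 and 12.10 at 3 days. COX7 was the only one of the 39 genes that did not read lower on array B of BY4742 after glucose than on array A. After quantile normalisation it fell, with an averaged change of -0.50 and a limma adjusted p of 0.016. COX4, COX6 and COX13, further nuclear-encoded subunits, had averaged changes of 0.58, 0.67 and 0.51 and missed the threshold, with limma adjusted p-values of 0.072, 0.051 and 0.063.

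COX5A (YNL052W) and COX5B (YIL111W) encode alternative forms of subunit V, the first known for aerobic and the second for hypoxic cells. COX5A read 12.73 and 12.61 in stb3-null cells after glucose and 12.08 and 11.60 at 3 days, and 12.55 and 11.78 in BY4742 after glucose and 11.68 and 12.08 at 3 days. COX5B read 9.06 and 9.19 in stb3-null cells after glucose and 8.70 and 8.51 at 3 days, and 8.82 and 8.43 in BY4742 after glucose and 8.63 and 7.84 at 3 days. The averaged changes were close, 0.56 ± 0.23 and 0.46 ± 0.20, and neither passed the test.

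The log2 ratio of COX5A to COX5B was 3.67 and 3.42 in stb3-null cells after glucose and 3.38 and 3.09 at 3 days, and 3.73 and 3.35 in BY4742 after glucose and 3.05 and 4.24 at 3 days. Its mean change was 0.10, with p = 0.72 by the exact permutation test, and the highest ratio of all arrays was that of array B of BY4742 at 3 days. Under quantile normalisation the change was -0.55, with p = 0.056 by the same exact test, the smallest it allows, so the direction of this ratio was not settled.

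ATP synthase couples the proton gradient to ATP formation. Of its 12 genes, 10 rose in the average, 7 rose in stb3-null cells and 1, ATP2, rose in BY4742, and none fell, where 39.8%, 28.0% and 32.3% of all genes rose in the same comparisons. The median of the 12 averaged changes was 0.76 as deposited, with all 12 positive. After quantile normalisation it was -0.05, with 5 positive, 7 negative and no call in either direction, and after trimmed-mean scaling it was 0.27, with 11 positive and 1 call. Without array B of BY4742 after glucose, the median of the 12 averaged changes was 0.91, against 0.23 over all genes.

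In the catalytic head and the central stalk, called F1, 4 of 5 genes rose in the average. ATP2 (YJR121W), the catalytic beta subunit, read 12.95 and 13.04 in stb3-null cells after glucose and 12.42 and 11.92 at 3 days, and 13.15 and 12.49 in BY4742 after glucose and 12.07 and 11.60 at 3 days. ATP1 (YBL099W), the alpha subunit, read 12.68 and 12.41 in stb3-null cells after glucose and 12.03 and 11.71 at 3 days, and 12.80 and 12.20 in BY4742 after glucose and 11.65 and 11.90 at 3 days. Both genes stood higher on every glucose array than on any array at 3 days. The averaged change was 0.91 ± 0.23 for ATP2 and 0.70 ± 0.21 for ATP1, with limma adjusted p-values of 0.0069 and 0.016, and it was 0.08 and -0.14 after quantile normalisation.

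The epsilon subunit ATP15 (YPL271W) and the delta subunit ATP16 (YDL004W) sit on the central stalk. ATP15 read 12.96 and 12.88 in stb3-null cells after glucose and 12.20 and 11.81 at 3 days, and 12.65 and 12.44 in BY4742 after glucose and 11.74 and 12.20 at 3 days. ATP16 read 12.87 and 12.77 in stb3-null cells after glucose and 12.14 and 11.67 at 3 days, and 12.88 and 12.15 in BY4742 after glucose and 11.70 and 12.09 at 3 days. Neither gene overlapped between conditions, though the gap was 0.01 for ATP16. Their averaged changes were 0.75 ± 0.20 and 0.77 ± 0.23, with limma adjusted p-values of 0.0089 and 0.015.

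ATP3 (YBR039W), the gamma subunit that turns within the head, was the one F1 gene that missed the threshold, with an averaged change of 0.51 ± 0.24 and a limma adjusted p of 0.090. It read 12.75 and 12.65 in stb3-null cells after glucose and 12.21 and 11.75 at 3 days, and 12.73 and 11.97 in BY4742 after glucose and 11.76 and 12.33 at 3 days. In BY4742 the B arrays stood in the opposite order to the A arrays. Array B after glucose also lay below array A of stb3-null cells at 3 days, while array B at 3 days lay below all other glucose arrays.

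In the peripheral stalk and the membrane part, 6 of 7 genes rose in the average and 5 rose within stb3-null cells. ATP17 (YDR377W), subunit f of the membrane part, had the largest averaged change of all 39 genes, 1.02 ± 0.23 or 2.03-fold, with a limma adjusted p of 0.0037. It read 12.07 and 11.94 in stb3-null cells after glucose and 10.77 and 10.59 at 3 days, and 11.99 and 11.18 in BY4742 after glucose and 10.59 and 11.15 at 3 days. The conditions were far apart in stb3-null cells and nearly touched between the B arrays of BY4742. Its averaged call was kept under 15 of the 16 other settings, quantile normalisation being the exception, where the change was 0.35.

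ATP20 (YPR020W), subunit g, which takes part in forming dimers of the enzyme, read 11.77 and 11.60 in stb3-null cells after glucose and 10.81 and 10.37 at 3 days, and 11.64 and 10.95 in BY4742 after glucose and 10.39 and 10.85 at 3 days. ATP18 (YML081C-A), a small membrane subunit, read 12.38 and 12.49 in stb3-null cells after glucose and 11.69 and 11.35 at 3 days, and 12.35 and 11.83 in BY4742 after glucose and 11.26 and 11.79 at 3 days. Both were apart between conditions on all arrays. The averaged change was 0.89 ± 0.22 for ATP20 and 0.74 ± 0.21 for ATP18, with limma adjusted p-values of 0.0065 and 0.013.

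Of the peripheral stalk, ATP7 (YKL016C), subunit d, read 12.63 and 12.51 in stb3-null cells after glucose and 11.82 and 11.32 at 3 days, and 12.45 and 11.86 in BY4742 after glucose and 11.35 and 11.57 at 3 days. ATP14 (YLR295C), subunit h, read 12.07 and 12.21 in stb3-null cells after glucose and 11.38 and 11.13 at 3 days, and 12.04 and 11.69 in BY4742 after glucose and 11.10 and 11.42 at 3 days. For both, every glucose array was above every array at 3 days, and the other probe set for ATP14 gave 0.88 in stb3-null cells and 0.34 in BY4742 where the one used gave 0.89 and 0.61. The averaged changes were 0.85 ± 0.21 for ATP7 and 0.75 ± 0.19 for ATP14, with limma adjusted p-values of 0.0064 and 0.0066.

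ATP5 (YDR298C), the subunit that links the stalk to the head, read 11.57 and 11.54 in stb3-null cells after glucose and 10.80 and 10.43 at 3 days, and 11.70 and 10.56 in BY4742 after glucose and 10.58 and 10.26 at 3 days. Within each strain the conditions were apart or nearly so, but array B of BY4742 after glucose lay below 2 arrays at 3 days, and the averaged change was 0.83 ± 0.26, with a limma adjusted p of 0.018. ATP4 (YPL078C), subunit b, had the lowest change of the group, 0.40 ± 0.24, and did not pass. Its signals were 11.73 and 11.73 in stb3-null cells after glucose and 11.38 and 10.86 at 3 days, and 11.62 and 10.68 in BY4742 after glucose and 10.90 and 11.04 at 3 days.

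**Figure D3:**
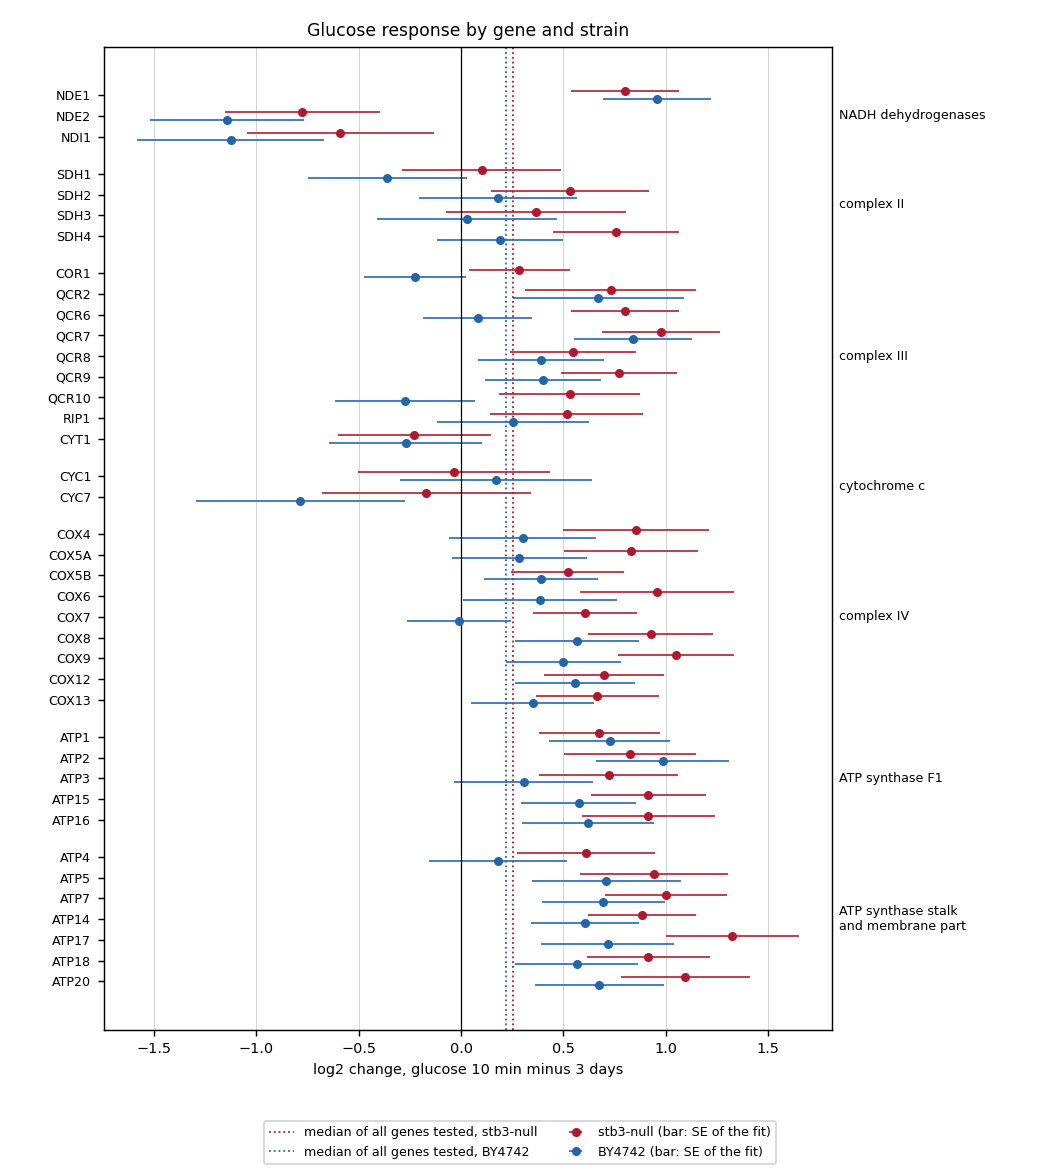
Log2 change of each of the 39 genes, glucose minus 3 days (horizontal axis), in stb3-null cells and in BY4742, with bars for the standard error of the fit (2 arrays a group) and dotted lines at the medians of all genes tested, 0.26 and 0.22. ATP synthase genes lie to the right of both lines in nearly all cases and NDE2 and NDI1 to the left of 0; these are the deposited values, and after quantile normalisation the median of the 12 ATP synthase genes in the average is -0.05.

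ATP synthase genes stood higher after glucose relative to the other complexes, on every array and under both scalings compared. The mean log2 signal of the 12 ATP synthase genes minus that of complex II was 0.06 and -0.08 in stb3-null cells after glucose and -0.48 and -0.47 at 3 days, and -0.10 and 0.39 in BY4742 after glucose and -0.42 and -0.50 at 3 days. The mean difference between conditions was 0.53, and 0.58 after quantile normalisation. Against complex III the 4 glucose arrays lay between 0.15 and 0.32 and the 4 arrays at 3 days between -0.30 and 0.00, a mean difference of 0.38 as deposited and 0.33 after quantile normalisation. Against complex IV they lay between 0.03 and 0.22 and between -0.12 and 0.01, a mean difference of 0.18 as deposited and 0.15 after quantile normalisation. In each of the 3 comparisons the conditions did not overlap. These are descriptions of means over chosen genes, and no test was made of them.

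**Figure D4:**
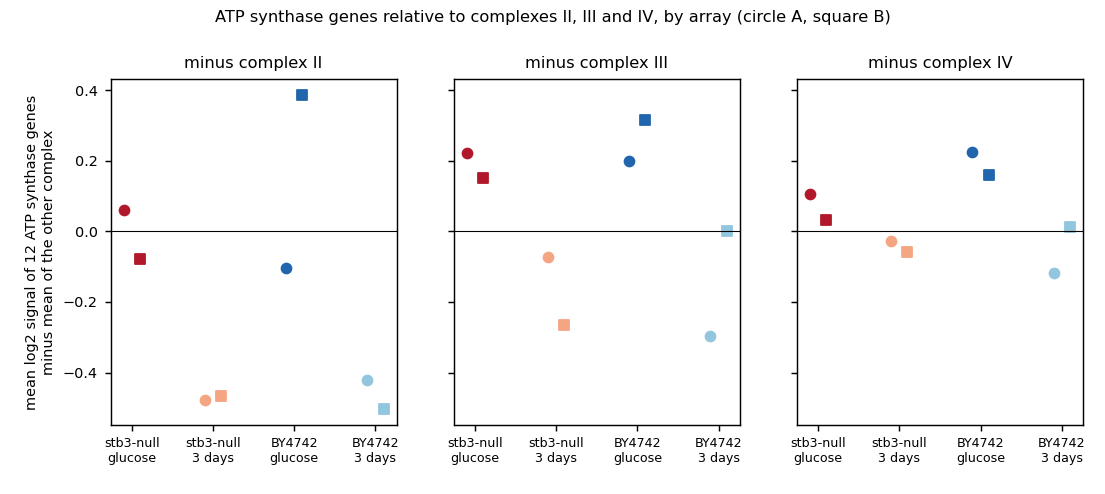
Mean log2 signal of the 12 ATP synthase genes minus that of the genes of complex II, III or IV (panels, one vertical scale) on each array, with circles for replicate A and squares for replicate B. In each panel the 4 glucose arrays lie above the 4 arrays at 3 days, most widely for complex II, with a mean difference of 0.53, and least for complex IV, with 0.18.

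The genes fell in a similar order in both strains. Across the 39 genes, the change in stb3-null cells and that in BY4742, which share no array, had a Pearson correlation of 0.88 and a Spearman correlation of 0.78, where all 5343 genes gave 0.92 and 0.91. Genes are not independent replicates, so these are descriptions. Within stb3-null cells, 32 of the 39 genes stood higher on both glucose arrays than on both arrays at 3 days and 3 stood lower, where 52.1% and 28.5% of all genes did. Within BY4742, 14 of the 39 stood higher and 2 lower, where 44.0% and 26.9% of all genes did. Over all 8 arrays, 14 genes were higher on all 4 glucose arrays and 2, NDE2 and NDI1, were lower, against 36.5% and 18.2% of all genes.

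At 3 days no difference between the strains passed the test among these genes. None of the 39 was called between stb3-null cells and BY4742, where 2 of all genes did, or 0.0374%, and no member reached an unadjusted p below 0.05, where 466 of all genes did. The median difference, stb3-null minus BY4742, was 0.04, against 0.03 over all genes. QCR7 stood higher on both stb3-null arrays than on both BY4742 arrays and no member stood lower, where 20.3% and 16.9% of all genes did.

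After glucose, 38 of the 39 genes had a higher mean in stb3-null cells than in BY4742, with a median difference of 0.39, against 0.04 over all genes, but none passed the test. Of all genes 1 passed, or 0.0187%, and the smallest adjusted p among the 39 genes was 0.40 by limma. At an unadjusted p below 0.05 there were 2 members, COX7 and COR1, and 516 of all genes. Both stb3-null arrays lay above both BY4742 arrays for 18 of the 39 genes and below for none, where 23.8% and 20.3% of all genes did so. The size of this difference depended on which array of BY4742 after glucose was kept. Without array B the median was 0.02, with 20 genes higher in stb3-null cells and 19 lower. Without array A in its place it was 0.74, with all 39 higher.

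The 2 genes with the smallest p-values show the size of these differences. COX7, whose signals are given above, was higher in stb3-null cells after glucose than in BY4742 by 0.78 ± 0.25, with a limma adjusted p of 0.40. COR1 (YBL045C), a core protein of complex III, read 11.38 and 11.41 in stb3-null cells after glucose and 10.81 and 10.52 in BY4742 after glucose, a difference of 0.73 ± 0.25, with a limma adjusted p of 0.41. For these genes both BY4742 arrays lay below both stb3-null arrays. At 3 days COR1 read 11.21 and 11.01 in stb3-null cells and 11.03 and 10.75 in BY4742, where the strains overlapped.

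The glucose response was larger in stb3-null cells than in BY4742 for 35 of the 39 genes, against 2747 of all 5343 genes, with a median difference of responses of 0.35, against 0.02 over all genes. None of the differences passed the interaction test, as was so for all genes, 0% of which passed, with the smallest adjusted p among the 39 at 0.75 by limma. No member and 370 of all genes reached an unadjusted p below 0.05. The largest differences were 0.81 ± 0.49 for QCR10 and 0.72 ± 0.37 for QCR6. Without array B of BY4742 after glucose the median difference was -0.01, with 18 genes positive and 21 negative, and without both B arrays of BY4742, an alternative chosen after seeing the data, 9 were positive and 30 negative. What set array B of BY4742 after glucose apart was not tested.

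**Figure D5:**
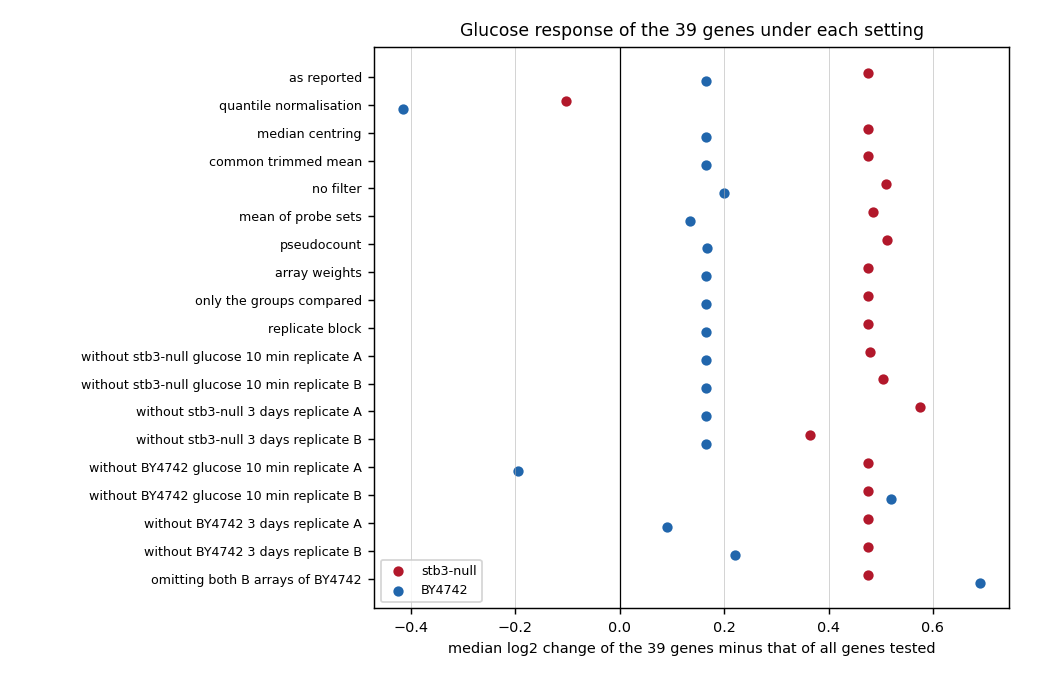
Median log2 change after glucose of the 39 genes minus that of all genes tested (horizontal axis), in stb3-null cells and in BY4742, under each way of processing and with each array left out (rows). Both strains turn negative under quantile normalisation, at -0.10 and -0.41, and the BY4742 value runs from -0.20 to 0.52 depending on which of its arrays after glucose is left out.

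The genes around the 39 were taken from lists of related functions, and the counts are those of the averaged response. In that response 39.8% of all genes rose and 21.1% fell as deposited. Of 7 mitochondrially encoded subunits with a probe set, 6 passed the filter, 4 fell and none rose. Within BY4742, too, 4 fell and none rose, where 17.6% of all genes fell and 32.3% rose. Within stb3-null cells none of the 6 passed, with a smallest limma adjusted p of 0.054, where 11.6% of all genes fell and 28.0% rose. COB, cytochrome b of complex III, read 6.02 and 5.93 in stb3-null cells after glucose and 6.97 and 6.32 at 3 days, and 6.5 and 6.51 in BY4742 after glucose and 7.31 and 7.63 at 3 days. It fell by 0.82 ± 0.17 on the log2 scale, with a limma adjusted p of 0.0026, and ATP6, a proton channel subunit of ATP synthase, fell by 1.0 ± 0.23, with one of 0.0040. Both stood near the filter, a log2 signal of 5.80. The 4 that fell kept negative changes under all 3 other scalings, where the median of the 6 ran from -0.68 to -1.21.

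Among 11 other subunits, paralogs and small proteins of these complexes, 3 rose and 5 fell. RCF2, which associates with complexes III and IV, read 12.29 and 12.23 in stb3-null cells after glucose and 10.42 and 10.13 at 3 days, and 12.48 and 12.11 in BY4742 after glucose and 10.51 and 10.13 at 3 days. It rose by 1.98 ± 0.19, with a limma adjusted p of 2.23e-05, a larger change than that of any of the 39 genes. TIM11, subunit e of ATP synthase and partner of ATP20 in dimers, rose by 0.90 ± 0.20. The paralogs of the 2 membrane anchors of complex II moved apart from them.

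SHH3, a paralog of SDH3, read 9.20 and 8.72 in stb3-null cells after glucose and 11.19 and 10.77 at 3 days, and 7.82 and 8.98 in BY4742 after glucose and 10.21 and 11.86 at 3 days. SHH4, a paralog of SDH4, read 8.27 and 7.88 in stb3-null cells after glucose and 9.86 and 9.82 at 3 days, and 7.60 and 7.32 in BY4742 after glucose and 9.74 and 10.52 at 3 days. SHH3 fell by 2.33 ± 0.37 on the log2 scale, with a limma adjusted p of 5.06e-04. SHH4 fell by 2.22 ± 0.20, with one of 1.54e-05, and both genes fell in either strain and kept the averaged call under all 16 other settings. SDH3 and SDH4 themselves did not pass the test.

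Of the regulators called, the activator genes HAP4 and CAT8 fell most, while the median change of the 15 regulators tested was -0.215. HAP4, the glucose-regulated activating subunit of the Hap2/3/4/5 complex, read 9.79 and 9.79 in stb3-null cells after glucose and 11.80 and 11.69 at 3 days, and 10.23 and 8.53 in BY4742 after glucose and 11.80 and 11.30 at 3 days. It fell by 2.06 ± 0.33 on the log2 scale, with a limma adjusted p of 4.73e-04, and kept that call under all 16 other settings. CAT8, an activator of gluconeogenic genes, fell by 1.88 ± 0.30 in the average. Its log2 change was -1.06 in stb3-null cells, with a limma adjusted p of 0.075, and -2.695 in BY4742, with one of 7.5e-04. Its BY4742 arrays after glucose read 8.66 and 7.20. Of the 15 regulators tested, 5 fell as deposited and 6 to 10 under the other scalings, and 1, the corepressor gene TUP1, rose, with a change of 0.47 that was -0.02 after trimmed-mean scaling.

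Assembly factors moved in both directions. Of 52 that serve complexes II to IV, 10 rose and 11 fell in the deposited values, 7 rose and 17 fell after quantile normalisation, and 1 rose and 30 fell after trimmed-mean scaling. All genes shifted in the same sense, from 2128 higher and 1128 lower calls as deposited to 1134 higher and 2157 lower ones after trimmed-mean scaling. FLX1, a mitochondrial carrier linked to FAD supply, rose by 1.14 ± 0.16, and SOM1, of the inner membrane peptidase, by 0.92 ± 0.20. CBP4, an assembly factor of complex III, read 7.49 and 7.05 in stb3-null cells after glucose and 9.32 and 9.27 at 3 days, and 6.94 and 6.98 in BY4742 after glucose and 9.40 and 9.71 at 3 days. It fell by 2.31 ± 0.15, with a limma adjusted p of 3.24e-06, and COX19, an assembly factor of complex IV, fell by 0.94 ± 0.19. Of 12 factors for ATP synthase, 4 rose and 1 fell as deposited, 3 rose and 3 fell after quantile normalisation or median centring, and 1 rose and 7 fell after trimmed-mean scaling. ATP23, which processes and assembles the mitochondrially encoded subunit 6, rose by 1.39 ± 0.13, NCA3 by 0.70 ± 0.23, and NCA2, which acts on the transcripts of ATP6 and ATP8, fell by 1.26 ± 0.15.

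The lists of cofactors and exchange partners were mixed as well. Of 12 genes of coenzyme Q synthesis, 3 rose and 5 fell, and falls outnumbered rises under the other scalings too. Among them were YAH1, mitochondrial ferredoxin, which rose by 1.62 ± 0.16, COQ2, which attaches the isoprenoid tail and rose by 1.23 ± 0.16, and COQ9 and COQ4, which fell by 1.12 ± 0.18 and 1.07 ± 0.18. Of 8 heme synthesis genes, 5 fell and none rose in the deposited values, with HEM13, coproporphyrinogen oxidase, at -1.10 ± 0.26 and HEM3, porphobilinogen deaminase, at -1.02 ± 0.17. Both stood near the filter, HEM13 between 5.39 and 7.31 and HEM3 between 5.61 and 7.50. The arrays of BY4742 at 3 days differed by 1.05 for HEM13. Of 7 genes listed as other electron donors, 3 rose and 1 fell in the deposited values, and none rose and 2 fell after quantile normalisation. CYB2, which passes electrons from lactate to cytochrome c, fell by 1.30 ± 0.20, while the leading risers, URA1 (1.06 ± 0.21) and DLD3 (0.95 ± 0.21), encode cytosolic enzymes. The change of DLD3 was 1.575 in BY4742, with a limma adjusted p of 0.0021, and 0.315 in stb3-null cells, with one of 0.43.

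Of 14 carriers and porins, 6 rose and 4 fell as deposited, whereas 3 rose and 5 fell after quantile normalisation and 4 rose and 6 fell after trimmed-mean scaling. OAC1, a carrier of oxaloacetate and sulphate, rose most, by 2.56 ± 0.24 with a limma adjusted p of 2.19e-05, and POR2, a minor outer membrane porin, rose by 1.61 ± 0.18. CRC1, the carnitine carrier, and SFC1, which exchanges succinate for fumarate, fell by 1.48 ± 0.22 and 1.15 ± 0.27 on the log2 scale. These 4 genes kept their calls under all 16 other settings. No gene of any of the related lists passed either comparison between strains or the interaction test.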

How the data were processed

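Total RNA of 8 samples was hybridised to Affymetrix expression arrays, labelled with biotin and stained by the manufacturer's protocol, per the labels' protocols. The table the authors deposited gave log2 signals of 9275 probe sets on each array. MAS5, which summarises a probe set into 1 signal, is named without version in the submitters' processing notes. The step that made arrays comparable is not given in the sources used. That the logarithm has base 2 was taken from the values, which ran from 0 to 14.55 and as powers of 2 gave 2% trimmed means of 436.9 to 673 per array.

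Values were used as deposited, with no pseudocount. Gene symbols came from the platform annotation and a RefSeq gene table of assembly R64. Of them, 6504 carried 1 gene, 328 several and 2443 none, and those with several or none were left out. The probe set with the highest mean stood for a gene. Genes were tested where the mean antilog signal reached 10% of the mean trimmed mean. limma 3.58.1 in R 4.3.3 fitted a mean for each of the 4 groups with an empirical Bayes trend (4 residual and 5.56 prior degrees of freedom), for 6 comparisons: the glucose response in each strain and averaged, the strain difference at 3 days and after glucose, and the difference of responses. P-values were two-sided and adjusted by the Benjamini-Hochberg method over 5343 genes, with calls at an adjusted p below 0.05. The same steps were tested on simulated data. With 2 arrays per group, precision is limited by the number of arrays, and no test for outlying arrays applies.

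Groups came from the sample titles. The 39 genes and the lists of related genes were chosen with earlier results of these data known. Arrays were named in full for genes called in any comparison, isoform pairs and the highest and lowest averaged change of each complex, and of each related list the 2 largest rises and falls among calls were named. COR1 and QCR10 were also singled out after their values were seen. Alternatives were other scalings, filters, probe set rules, weights and left-out arrays. The replicate letters were not taken to pair the arrays, since no label gives them a meaning and a group pair shares only 2 letters. A minus B correlated at 0.128 to 0.224 in 4 of the 6 pairs of groups and at -0.168 and -0.183 in the others, both of a stb3-null group with BY4742 at 3 days.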

Additional observations from a re-analysis of the deposited data

How the results depend on the processing

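Alternatives changed how many of all genes were called and how many of the 39 were (18 averaged, 12 in stb3-null cells and 4 in BY4742). Quantile normalisation gave 7 calls averaged, 1 in stb3-null cells and 7 in BY4742, all of them falls. Trimmed-mean scaling gave 6 averaged and 2 in stb3-null cells, and median centring 6 in stb3-null cells. Array weights gave 29 in stb3-null cells and 1 in BY4742, and fitting only the groups compared gave 30 and 0. Leaving out 1 array in turn gave 10 to 31 averaged, 0 to 20 in stb3-null cells and 1 to 13 in BY4742, and omitting both B arrays of BY4742, chosen after seeing the data, gave 33, 31 and 24. The median of the 39 genes minus that of all genes was -0.25 averaged, -0.10 in stb3-null cells and -0.41 in BY4742 under quantile normalisation. Leaving out 1 array moved it between -0.20 and 0.52 in BY4742, between 0.00 and 0.67 for the difference of responses and between -0.005 and 0.71 for the strains after glucose, and omitting both B arrays of BY4742 gave 0.69, -0.14 and -0.005. Of the 39 averaged changes, 31 were negative under quantile normalisation and 17 under trimmed-mean scaling, against 5 as deposited. The turned values given next are only those of genes called under one of the 2 settings compared. Quantile normalisation turned the averaged change of ATP1 to -0.14, ATP14 to -0.030, ATP15 to -0.086, ATP16 to -0.065, ATP18 to -0.089, COR1 to -0.61, COX12 to -0.17, COX7 to -0.50, COX8 to -0.022, COX9 to -0.061, NCA3 to -0.14, QCR10 to -0.57, QCR6 to -0.39 and QCR9 to -0.21, the change in stb3-null cells of NDE1 to -0.059 and QCR6 to -0.062, that of QCR6 in BY4742 to -0.73, and the COX5A/COX5B ratio to -0.55. Trimmed-mean scaling turned COR1 to -0.46 and TUP1 to -0.025. The cause of these changes was not tested, beyond what each alternative does by its construction.

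With the replicate letter as a term (replicate block), 21 genes were called averaged, 11 in stb3-null cells and 5 in BY4742, and the comparisons between strains had no call. Pairing A with B across the strains at 3 days, also chosen after seeing the data, called none of the 39 genes. No detection calls were used, so signals near the filter have no separate check against background.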
